A study of Caenorhabditis elegans with 6 samples.

Results

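The genes of major sperm protein (MSP) and of small proteins with an MSP domain were followed in L4 larvae of Caenorhabditis elegans. Every gene whose symbol in the WBcel235 annotation is msp-, msd- or ssp- followed by a number was taken, which gave 47 of the 20001 genes in the files. Of these, 31 are msp genes, 4 are msd genes and 12 are ssp genes. Nematode sperm have no flagellum and crawl on a pseudopod, and MSP is the protein whose filaments fill that pseudopod and move it. Before the sperm is activated, MSP is stored in spermatocytes in fibrous bodies that sit on membranous organelles. MSP that sperm release also acts as a hormone, which makes oocytes resume meiosis and makes the sheath cells of the gonad contract. Hermaphrodites make their sperm late in larval life and then switch to oocytes, so these transcripts belong to the germline of the L4 stage.

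RNA came from whole animals at the L4 stage, 3 samples of ddi-1(icb156) mutants and 3 of wild type, all grown at 20°C on Escherichia coli OP50 after bleaching of gravid adults. The study sequenced the mutants to ask whether an impaired proteasome turns on the oomycete recognition response, and DDI-1 is an aspartic protease that cuts and activates the transcription factor SKN-1A. The allele icb156 is a non-synonymous change from an EMS screen, and the strain list places it in a single strain with icbIs4[chil-27p::GFP; col-12p::mCherry]. Neither the presence of that transgene in the wild-type animals nor the sex of the animals was given in the sources used here. In whole animals, fewer sperm-forming cells and less RNA per cell cannot be told apart.

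The libraries held 28962104 to 47142002 estimated counts each. ddi-1 itself was at 35.0, 35.3 and 35.5 CPM in the mutants, against 48.5, 50.3 and 48.6 CPM in wild type. CPM are the counts of a gene scaled to the size of its library. It fell by 0.48 on the log2 scale (SE 0.05, edgeR adjusted p = 0.00308). Since icb156 changes a codon and is not a deletion, the level of the transcript was not used to check the labels. Wild type replicate 2 stood apart from its group, since on the first principal component of all genes it lay between the 3 mutants and wild type replicates 1 and 3. It was the lowest wild-type library in all 44 members that could be tested, so results are also given without it.

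Transcripts of the MSP genes were lower in the mutants. The 47 members together made up 462, 329 and 538 CPM in ddi-1(icb156), against 2805, 777 and 2877 CPM in wild type. As a share of all estimated counts this was 0.0476%, 0.0352% and 0.0530% in the mutants and 0.272%, 0.0758% and 0.279% in wild type. The mutants averaged 443 ± 106 CPM and wild type 2153 ± 1192 CPM (SD, n = 3 each), and the mean log2 total was lower in the mutants by a log2 difference of -2.09. All 3 mutants lay below all 3 wild-type samples, but wild type replicate 2 lay much closer to the mutants than to the other wild-type samples. Set against replicate 2 alone the log2 difference was -0.84, and with replicate 2 left out it was -2.71. Within the same replicate number it was -2.60, -1.24 and -2.42 for replicates 1, 2 and 3. No p-value is given for these totals, since the members were chosen with earlier results known.

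Each of the 3 family totals was lower in the mutants. The msp genes summed to 393, 278 and 454 CPM in the mutants, against 2421, 661 and 2482 CPM in wild type, a log2 difference of -2.11. The 4 msd genes, named for their major sperm protein domain, summed to 20.1, 17.4 and 24.2 CPM in the mutants, against 128, 36.7 and 136 CPM in wild type, a log2 difference of -2.08. The 12 ssp genes, sperm-specific family class P, summed to 48.7, 33.6 and 59.5 CPM in the mutants, against 255, 79.8 and 259 CPM in wild type, a log2 difference of -1.92. In each family mutant replicate 2 was the lowest and mutant replicate 3 the highest of the mutants, and wild type replicate 2 was the lowest of the wild-type libraries.

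**Figure D1:**
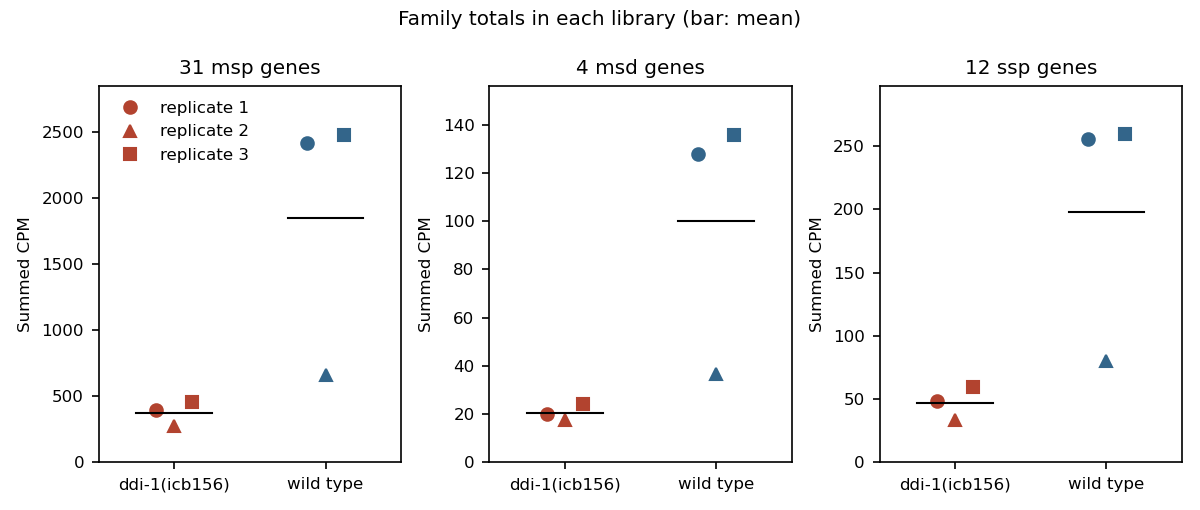
Summed CPM (linear axes from 0) of the 31 msp, 4 msd and 12 ssp genes in each of 3 ddi-1(icb156) and 3 wild-type libraries, with marker shape for the replicate number and a bar at the group mean. The mutants lie below every wild-type library in all 3 panels, and wild type replicate 2 (661 CPM for msp) sits between the mutants and the other wild-type libraries.

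Single members were compared by edgeR's quasi-likelihood test over all genes, and a gene passed at a p below 0.01 with a Benjamini-Hochberg adjusted p below 0.1. Of the 47 members, 44 had enough counts to be tested. In the mutants 40 of these 44 were lower and 0 were higher, beside 13.4% lower and 9.96% higher among all 15410 genes tested. At an unadjusted p under 0.05, 43 of the 44 were lower and none was higher, and DESeq2 also called 0 members higher. These counts have no share over all genes beside them, so they cannot be set against all genes. The members' median log2 fold change was -2.30, against 0.01 over all tested genes, and 1.84% of all tested genes lay at or below that median. In 42 of the 44 the CPM of all 3 mutants were below those of all 3 wild-type samples, which was so for 23.5% of all tested genes.

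How many members passed depended on which libraries were used. Without wild type replicate 2 all 45 members then testable were lower, where 22.2% of all genes were. Without wild type replicate 1, 18 of 44 were lower (5.9% of all genes), and without wild type replicate 3, 14 of 44 (5.25%). Leaving out ddi-1(icb156) replicate 1 left 2 of 45 (5.16%), leaving out ddi-1(icb156) replicate 2 left 1 of 45 (4.93%) and leaving out ddi-1(icb156) replicate 3 left 10 of 45 (7.62%). Every tested member kept a log2 fold change below 0 in each of these fits. With the replicate number as a block, 41 of 44 were lower, beside 14.3% of all genes, and by DESeq2 43 of 44, beside 18.4%.

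**Figure D2:**
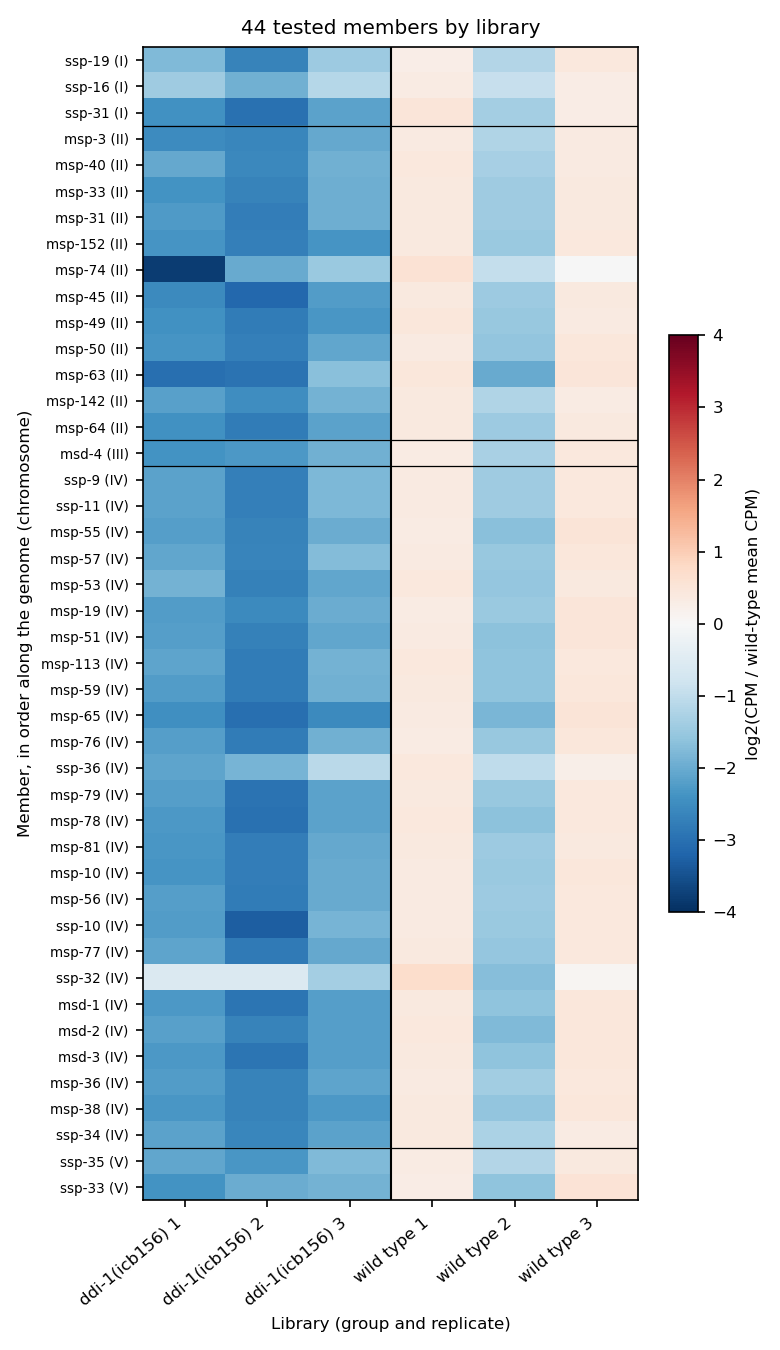
Log2 ratio of the CPM of each of the 44 tested members (rows, in order along chromosomes I to V) to its mean in wild type, in 3 ddi-1(icb156) libraries (left) and 3 wild-type libraries (right). Blue marks values below the wild-type mean. The mutant columns are dark blue in nearly all rows, wild type replicate 2 is the palest of the blue columns, and ssp-32 is the row whose mutant columns are pale.

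The msp genes encode MSP itself in many near-identical copies. They lie on chromosomes II (13 genes) and IV (18 genes), and 28 of the 31 have a transcript of 384 bases, a coding length with 1 exon and no annotated UTR. kallisto divides a read that fits several copies among them, and the counts show this: 30 of the 31 msp genes had a fractional count in every library (tolerance 0.001). The level of a single copy is therefore uncertain, and the total of the family is surer.

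Of 29 tested msp genes, 27 were lower in the mutants and 2 did not pass. Their log2 fold changes ran from -2.66 to -2.10, with a median of -2.32. Copies that share reads do not give independent values, so this narrow range does not show that each copy changed alike. The median was -2.37 for the 12 tested on chromosome II and -2.30 for the 17 tested on chromosome IV. Per length, 27 msp genes averaged above 50 TPM over all libraries, and the other 4 were msp-32, msp-58, msp-63 and msp-74, which are described below.

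The most abundant copy was msp-40 (C33F10.9, chromosome II, 4825414 to 4825797), with 99.7 ± 17.8 TPM in the mutants and 437 ± 222 TPM in wild type (SD, n = 3 each). It had 26.7, 18.5 and 29.3 CPM in the mutants, against 148, 44 and 142 CPM in wild type. Its groups did not overlap, and it fell by 2.16 on the log2 scale (SE 0.47, edgeR adjusted p = 0.0263). Next came msp-81 (K07F5.1, chromosome IV, 9836034 to 9836417), at 21.9, 16.4 and 26.7 CPM in the mutants, against 145, 40.5 and 146 CPM in wild type. The log2 fold change of msp-81 was -2.35 (SE 0.50, edgeR adjusted p = 0.0256). The third was msp-31 (R05F9.13, chromosome II, 4916179 to 4916562), at 22.2, 15.6 and 27.6 CPM in the mutants, against 139, 39.6 and 140 CPM in wild type, with a log2 fold change of -2.29 (SE 0.50, edgeR adjusted p = 0.0273). In all 3 genes wild type replicate 2 was far below the other wild-type samples and still exceeded each mutant.

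The largest msp difference was that of msp-65 (ZK354.1, chromosome IV, 5316523 to 5316906). It had 5.33, 3.66 and 5.01 CPM in the mutants, against 37.7, 8.24 and 42.4 CPM in wild type, a log2 fold change of -2.66 (SE 0.60, edgeR adjusted p = 0.0287). msp-45 (F58A6.8) had 10.5, 6.93 and 13 CPM in the mutants, against 81.5, 22.5 and 80.9 CPM in wild type, a log2 fold change of -2.61 (SE 0.53, edgeR adjusted p = 0.0226). msp-49 (C34F11.6) had 8.37, 6.41 and 8.92 CPM in the mutants, against 60.5, 15.8 and 57.5 CPM in wild type, a log2 fold change of -2.50 (SE 0.51, edgeR adjusted p = 0.0228). These standard errors belong to the difference between the groups, not to differences between copies. Fold changes were not compared between copies, so their order by size of change is not resolved. msp-3 (F26G1.7, chosen after its values were seen) was the member that passed with every library left out in turn. It had 7.37, 6.93 and 10.2 CPM in the mutants, against 54.7, 18.4 and 54.6 CPM in wild type, with a log2 fold change of -2.38 (SE 0.44, edgeR adjusted p = 0.0170).

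The 4 rare msp genes gave the least certain values. msp-63 (K05F1.7) had 0.301, 0.309 and 0.759 CPM in the mutants, against 3.28, 0.601 and 3.36 CPM in wild type, so its groups overlapped at wild type replicate 2. Its log2 fold change was -2.40 (SE 0.74, edgeR adjusted p = 0.0554), and it did not pass because its unadjusted p was above 0.01. With the replicate block it passed at -2.22 (SE 0.49, edgeR adjusted p = 0.0331, range over all alternatives 0.000162 to 0.176). msp-74 (F09C12.7), with a transcript of 234 bases, had 0.0670, 0.232 and 0.334 CPM in the mutants, against 1.40, 0.476 and 0.915 CPM in wild type. Its groups did not overlap, and its log2 fold change of -2.11 (SE 0.61, edgeR adjusted p = 0.0455) did not pass for the same reason. msp-32 (R05F9.3), of 360 bases, had 0.1, 0.0257 and 0.0304 CPM in the mutants, against 0.372, 0.0752 and 0.381 CPM in wild type, too few counts to be tested. msp-58 (ZK354.10), of 234 bases, had no counts in any mutant and none in wild type replicate 2. Its counts summed to 4 over all wild-type libraries together, too few to be tested. With 3 counts over the mutants taken as the floor, wild type was 1.08-fold above it. This ratio takes the wild-type sum as exact, so it is not a lower bound on the difference.

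**Figure D3:**
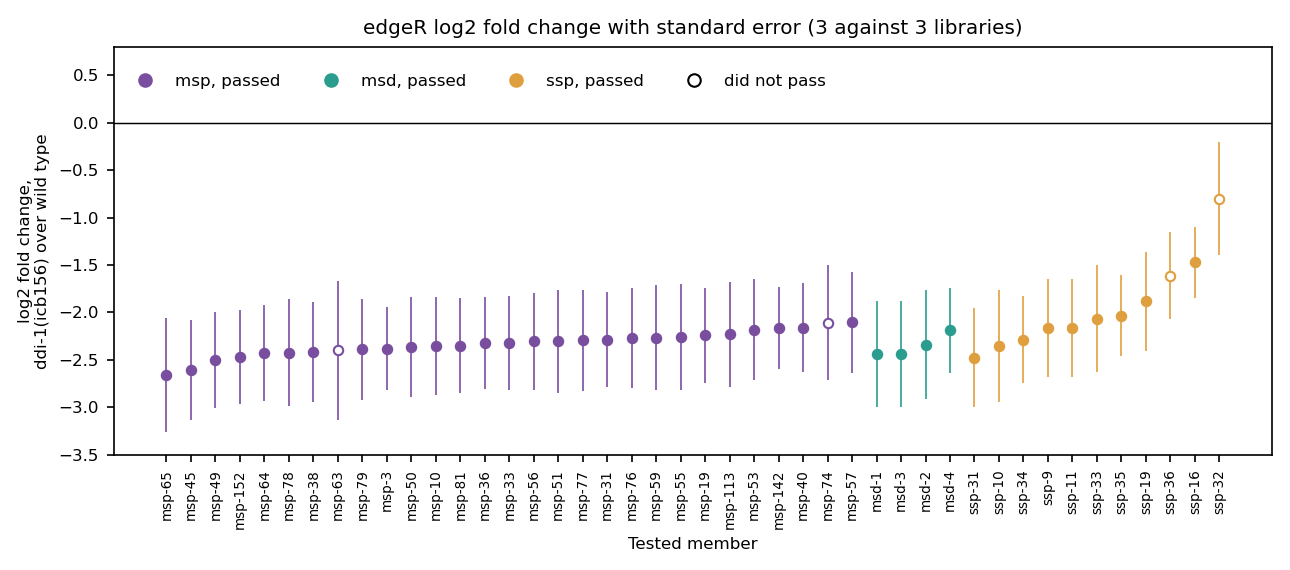
edgeR log2 fold change, ddi-1(icb156) over wild type, of the 44 tested members with its standard error (3 against 3 libraries), ordered within the msp, msd and ssp families. Filled points passed the test and open points (msp-63, msp-74, ssp-36 and ssp-32) did not. The msp points lie in a narrow band between -2.66 and -2.10, while the ssp points spread up to -0.80.

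All 4 msd genes were lower in the mutants. msd-4 (C35D10.11, chromosome III, 4868414 to 4868743) was the highest of them at 61.7 ± 9.81 TPM in the mutants and 275 ± 137 TPM in wild type (SD, n = 3 each). It had 10.2, 10.7 and 14 CPM in the mutants, against 66.3, 21.8 and 71.3 CPM in wild type, a log2 fold change of -2.19 (SE 0.45, edgeR adjusted p = 0.0229). The other three lie within a short stretch of chromosome IV. msd-2 (F44D12.5) had 3.95, 2.83 and 3.89 CPM in the mutants, against 23.9, 5.31 and 24.7 CPM in wild type, a log2 fold change of -2.34 (SE 0.58, edgeR adjusted p = 0.0334). Its exons overlap those of F44D12.16 on the same strand, so strand could not tell reads of the overlap apart. msd-1 (F44D12.3) and msd-3 (F44D12.7, which the Ensembl annotation also calls msd-1) had equal counts in every library, so their reads were divided equally between them. Each had 2.98, 1.93 and 3.16 CPM in the mutants, against 18.9, 4.79 and 20.0 CPM in wild type, a log2 fold change of -2.44 (SE 0.56, edgeR adjusted p = 0.0292). The groups of all 4 msd genes did not overlap.

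The ssp genes are spread over chromosomes I (4 genes), IV (6 genes) and V (2 genes). Their log2 fold changes had a wider range than those of the msp genes, with ssp-32, which did not pass, at its upper end. Since msp copies share reads, the 2 ranges do not show that the families differ in spread. Of 11 tested, 9 were lower in the mutants and 2 did not pass, with log2 fold changes from -2.48 to -0.80 and a median of -2.07. ssp-9 (E03H12.10) and ssp-11 (T28H11.6, also called ssp-9 in the Ensembl annotation) shared their reads equally and were the most abundant by TPM. Each had 9.11, 5.97 and 11.6 CPM in the mutants, against 51.3, 14.9 and 53.7 CPM in wild type, a log2 fold change of -2.17 (SE 0.52, edgeR adjusted p = 0.0316). ssp-10 (K07F5.9) had 6.06, 2.91 and 7.77 CPM in the mutants, against 36.7, 10.1 and 38.3 CPM in wild type, with a log2 fold change of -2.35 (SE 0.59, edgeR adjusted p = 0.0346). The largest ssp difference was that of ssp-31 (ZK1225.6), which had 1.78, 1.18 and 2.12 CPM in the mutants, against 13.2, 3.63 and 11.4 CPM in wild type. It fell by 2.48 on the log2 scale (SE 0.52, edgeR adjusted p = 0.0245).

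Reads of 4 ssp genes were not divided, since ssp-16, ssp-34, ssp-35 and ssp-37 had whole counts in all 6 libraries. Their values do not rest on divided reads. ssp-34 (ZC168.6) had 6.03, 4.30 and 6.01 CPM in the mutants, against 35.0, 10.9 and 33.6 CPM in wild type, a log2 fold change of -2.29 (SE 0.45, edgeR adjusted p = 0.0215). ssp-35 (F55C5.1) had 4.59, 3.86 and 5.74 CPM in the mutants, against 24.1, 8.57 and 25.4 CPM in wild type, a log2 fold change of -2.03 (SE 0.43, edgeR adjusted p = 0.0247). ssp-16 (T27A3.3) had the smallest change among the members that passed, with 9.01, 6.44 and 11 CPM in the mutants, against 30.7, 12.8 and 29.7 CPM in wild type, a log2 fold change of -1.47 (SE 0.37, edgeR adjusted p = 0.0354). ssp-16 and ssp-35 were chosen after their values were seen. ssp-37 (W02D9.5) had 0, 0 and 0.0304 CPM in the mutants, against 0.241, 0.0752 and 0.407 CPM in wild type, too few counts to be tested.

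Some ssp genes stood at the edge of the test or outside it. ssp-36 (T13F2.12) had 0.603, 0.721 and 1.24 CPM in the mutants, against 3.48, 1.3 and 3.08 CPM in wild type. Its log2 fold change of -1.61 (SE 0.46, edgeR adjusted p = 0.0460) did not pass, with an unadjusted p above 0.01. With the replicate block it passed at -1.54 (SE 0.38, edgeR adjusted p = 0.0416, range over all alternatives 0.000555 to 0.154). ssp-33 (R08A2.3, chosen after its values were seen) had 0.603, 0.798 and 0.850 CPM in the mutants, against 3.85, 1.03 and 4.60 CPM in wild type. It passed at a log2 fold change of -2.07 (SE 0.57, edgeR adjusted p = 0.0417). With the replicate block it no longer passed, at -1.86 (SE 0.52, edgeR adjusted p = 0.0577, range over all alternatives 3.12e-05 to 0.135).

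ssp-32 (F32B6.7, chromosome IV, 9895388 to 9896136) was the member least like the others. It had 1.04, 1.03 and 0.607 CPM in the mutants, against 2.54, 0.476 and 1.63 CPM in wild type, and its groups overlapped. Its log2 fold change was -0.80 (SE 0.59, edgeR adjusted p = 0.35), which did not pass. The mean of the mutants lay above wild type replicate 2 for ssp-32, by a log2 difference of 0.91, and below it for the other 43 tested members. It passed without wild type replicate 2, at a log2 fold change of -1.23 (SE 0.31, edgeR adjusted p = 0.01, range over all alternatives 0.01 to 0.810).

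Wild type replicate 2 was below the rest of its group in every tested member. Against the mean of wild type replicates 1 and 3, its log2 difference had a median of -1.88 over the 44 members (range -2.46 to -1.24), against 0.00 over all tested genes. The mutants lay lower still, with a median log2 difference of -0.83 from wild type replicate 2 (range -1.18 to 0.91), against -0.01 over all tested genes. Among the mutants, replicate 2 was the lowest in 38 of the 44 members and replicate 3 the highest in 38.

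The mix of copies within the msp total was compared next, with the same limit of shared reads. msp genes made up 80.6% to 81.4% of the members' summed TPM in the mutants and 81.1% to 82.8% in wild type. Within the msp total, 27 of the 31 shares overlapped between the groups, and the differences of the mean share ran from -0.667 to 0.707 percentage points. The widest gaps were those of msp-57, with 5.40%, 5.18% and 5.96% of the msp total in the mutants, against 4.77%, 4.72% and 4.94% in wild type, and of msp-45, with 2.67%, 2.49% and 2.85% in the mutants, against 3.36%, 3.39% and 3.26% in wild type. Both give an exact two-sided permutation p of 0.1, the smallest that 3 against 3 allows, and an adjusted p of 0.522 over the 47 members. Within the ssp total, 5 of the 12 shares did not overlap between the groups, and shares of 1 total are not independent. The largest difference was that of ssp-16, with 18.6%, 19.3% and 18.4% in the mutants, against 12%, 15.9% and 11.4% in wild type. It had the same exact permutation p of 0.1 and adjusted p of 0.522. msp-57 and the shares named here were singled out after their values were seen.

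**Figure D4:**
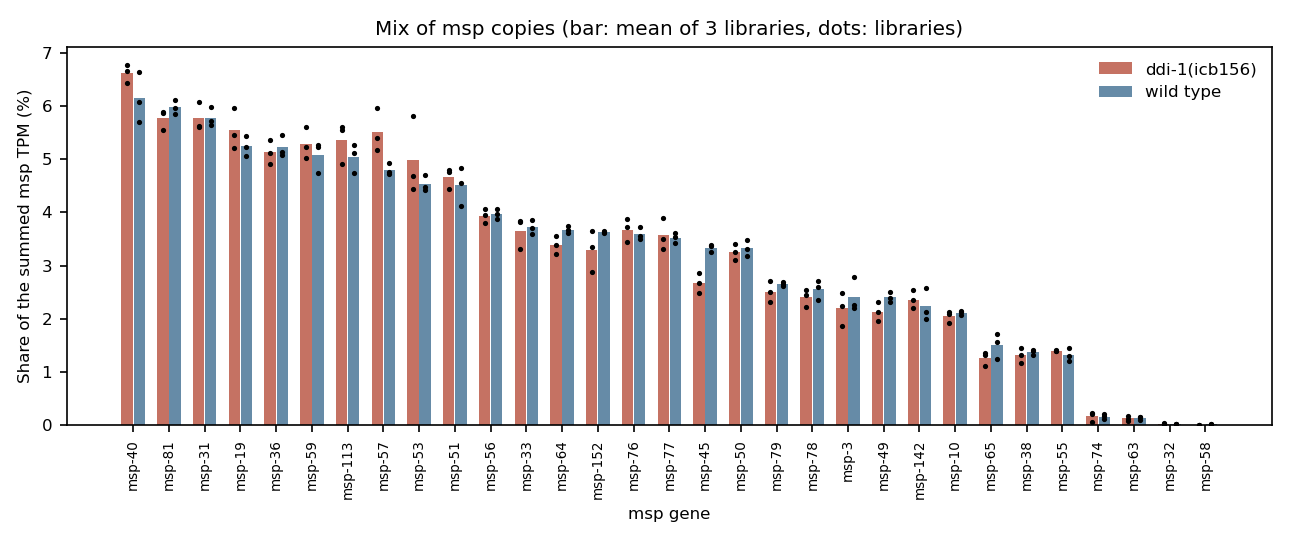
Share of the summed msp TPM (%) taken by each of the 31 msp genes in ddi-1(icb156) (left bar of each pair) and wild type (right bar), with bars at the mean of 3 libraries and dots for the libraries. The order of the copies is much the same in both groups, with msp-40 the highest and msp-32, msp-58, msp-63 and msp-74 near 0.

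The members sit in a few groups on the chromosomes. With gaps of at most 300000 bases, 39 of the 47 fall into 4 groups. On chromosome II these are 4785898 to 5200180 (10 msp genes) and 5797065 to 5810330 (3 msp genes), and on chromosome IV 4994371 to 5316906 (9 msp and 2 ssp genes) and 9689015 to 10143740 (9 msp, 3 msd and 3 ssp genes). The 4 group medians of the log2 fold change lay between -2.40 and -2.24. Other genes lie between the members, and of the 265 of these that were tested, 92 (34.7%) were lower in the mutants and 11 (4.15%) were higher. Among all tested genes 13.4% were lower and 9.96% higher. By group the share of neighbours that were lower ran from 26.7% of 105 to 75% of 4. In the first group on chromosome IV the median of 61 tested neighbours was -1.55, while in the second the median of 105 was -0.13. The 8 members outside these groups, on chromosomes I, III, IV and V, include msd-4, ssp-31 and ssp-34, which fell by 2.19, 2.48 and 2.29 on the log2 scale.

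Other genes of sperm formation were read from lists, beside 13.4% lower and 9.96% higher over all tested genes. In the list of fibrous bodies and membranous organelles, which hold MSP in spermatocytes, 4 of 8 tested were lower in the mutants and 0 higher, with a median log2 fold change of -1.29. It includes spe-18, which is needed for MSP to be packed into fibrous bodies, at 29.2, 24.0 and 40.8 CPM in the mutants, against 150, 52.0 and 149 CPM in wild type (log2 fold change -1.90, SE 0.43, edgeR adjusted p = 0.0290). spe-10, a palmitoyltransferase of these organelles, also fell (log2 fold change -1.48, SE 0.32, edgeR adjusted p = 0.0263). For sperm activation and motility, 6 of 13 were lower and 0 higher with a median of -1.52, among them gsp-3, a sperm protein phosphatase (log2 fold change -1.77), and spe-46 (-1.52). For the sperm surface and fertilization, 5 of 8 were lower and 0 higher with a median of -1.21, among them spe-9 (-1.42) and spe-36 (-1.38), proteins with EGF repeats that sperm need to fertilize the egg. The other small sperm protein families were lower in 19 of 19 tested with a median of -2.01, among them sss-1 (-2.35) and nspd-2 (-2.33). With the replicate block, 7 of 8 fibrous body, 8 of 13 activation, 4 of 8 surface and 19 of 19 small family genes were lower. These calls depended on the libraries used, and so did the share over all genes. Of all tested genes, 22.2% were lower without wild type replicate 2, and 4.93% to 7.62% with any other library left out. With ddi-1(icb156) replicate 1 left out, 0 genes of any of these 4 lists were lower, and with ddi-1(icb156) replicate 2 left out 1 surface gene was. Leaving out ddi-1(icb156) replicate 3 gave 3 fibrous body, 1 activation, 3 surface and 3 small family genes lower. Leaving out wild type replicate 1 gave 0 fibrous body, 1 activation, 0 surface and 4 small family genes lower, and leaving out wild type replicate 3 gave 2 small family genes and 0 of the other 3 lists. When wild type replicate 2 was left out, an alternative added after seeing the data, 8 of 8 fibrous body, 11 of 14 activation, 8 of 8 surface and 19 of 19 small family genes were lower.

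Regulators of sperm fate did not share that size of change. Of 13 tested, 2 were lower and 1 higher in the mutants, with a median log2 fold change of -0.13. Both counts are near the shares over all tested genes, 13.4% lower and 9.96% higher. spe-44, a transcription factor for sperm genes, had 21.0, 18.9 and 25 CPM in the mutants, against 34.6, 27.3 and 36.2 CPM in wild type (log2 fold change -0.60, SE 0.15, edgeR adjusted p = 0.0337). gld-1, a translational repressor of the germline, fell by 1.17 on the log2 scale (SE 0.27, edgeR adjusted p = 0.0288). fog-1, an RNA-binding protein required for germ cells to become sperm, went the other way, with 29.3, 29.7 and 29.3 CPM in the mutants, against 8.12, 18.8 and 9.13 CPM in wild type (log2 fold change 1.29, SE 0.32, edgeR adjusted p = 0.0337). Its wild type replicate 2 lay toward the mutants, as in the members. Without that library, 4 of the 13 were lower and 2 higher, and with the replicate block 2 were lower and 2 higher. With ddi-1(icb156) replicate 1, ddi-1(icb156) replicate 2, wild type replicate 1 or wild type replicate 3 left out, 0 were lower and 0 higher, and without ddi-1(icb156) replicate 3, 2 were lower and 0 higher.

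The msp total was also set against these lists within each library. The log2 ratio of the msp total to the sperm transcription and fate list was -0.45, -0.88 and -0.38 in the mutants, against 1.65, 0.09 and 1.68 in wild type, a difference of -1.71. Against the fibrous body list the difference was -1.06, against sperm activation -0.74, against the sperm surface -1.06, against the other small sperm families -0.18, against oogenesis -0.75, against the ssp total -0.19 and against the msd total -0.03. The groups did not overlap in 6 of the 8 ratios, where the exact two-sided permutation p was 0.1, the smallest possible, and adjusted over the 8 ratios 0.133. The exact permutation p was 0.2 against the sperm surface list and 0.9 against the msd total, where the groups overlapped. This exact test cannot give a p below 0.05 with 3 against 3 samples.

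The list for reception of the MSP signal in oocytes and sheath cells stayed near 0, with a median log2 fold change of -0.02. Of 19 tested, 2 were lower and 0 higher, where 13.4% of all tested genes were lower and 9.96% higher, so the lower count is near that share. The 2 lower genes were oma-1, a zinc finger protein that oocytes need to mature (-0.83, SE 0.21, edgeR adjusted p = 0.0370), and vpr-1 (-0.22, SE 0.06, edgeR adjusted p = 0.0352). vpr-1 is in the list but itself encodes an MSP-domain protein outside the members, so its call is not one of a receiver of the signal. The MSP receptor gene vab-1, chosen after its values were seen, had 57.7, 64.2 and 66.6 CPM in the mutants, against 61.4, 74.1 and 64.8 CPM in wild type (log2 fold change -0.09, edgeR adjusted p = 0.520). Leaving out wild type replicate 2 gave 5 of 19 lower, and leaving out any other library gave 0 of 19, so the calls of oma-1 and vpr-1 were lost in those fits.

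Among markers of other cells and of the stage, most oogenesis and yolk genes were lower, as the members were. By their medians the germline and molting lists changed less, but single molting genes reached a log2 fold change of -3.82. Whether the groups differed in stage was not tested, and neither was the part of these lists in the result. The counts of lower genes stand beside 13.4% over all tested genes. Oogenesis and eggshell genes were lower in 12 of 15 tested with a median of -1.27, and their summed level was 313 to 395 CPM in the mutants and 527 to 1131 CPM in wild type. perm-4 and perm-2, proteins of the eggshell's permeability barrier, fell by 3.90 and 4.04 on the log2 scale. All 6 yolk protein genes were lower, with a median of -4.60 and a summed level of 302 to 536 CPM in the mutants and 2754 to 5709 CPM in wild type. vit-4 had 2.45, 2.14 and 2.49 CPM in the mutants, against 568, 274 and 570 CPM in wild type, and vit-3 fell by 7.14 on the log2 scale. Germline genes of either sex were lower in 4 of 12 with a median of -0.41 (2030 to 2419 CPM in the mutants and 2507 to 3444 CPM in wild type), among them cgh-1 (-0.99) and glp-1 (-0.34). Leaving out wild type replicate 2 gave 14 of 15 oogenesis, 6 of 6 yolk and 11 of 12 germline genes lower, and the replicate block gave 7 of 12 germline genes lower. The yolk genes were lower in 6 of 6 whichever library was left out. Oogenesis genes were lower in 3, 2 and 5 of 15 without ddi-1(icb156) replicates 1, 2 and 3, and in 3 of 15 without wild type replicate 1 or without wild type replicate 3. Germline genes were lower in 2 of 12 without ddi-1(icb156) replicate 3 and in 0 of 12 without any of the other 4 libraries.

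Molting and cuticle genes were lower in 3 of 12, with a median of -0.26 and a summed level of 6933 to 7626 CPM in the mutants and 9424 to 9673 CPM in wild type. They include bli-1 (-3.82) and bli-2 (-3.55), collagens of the adult cuticle. bli-2 had 46.2, 45.3 and 47.1 CPM in the mutants, against 519, 520 and 581 CPM in wild type, so wild type replicate 2 was not low for it. Leaving out that library gave 4 of 12 lower and 2 higher, and leaving out any other gave 3 lower and 0 higher. Of the 7 genes of male neurons, 2 could be tested and neither passed, and the summed level of the 7 was 2.11 to 3.13 CPM in the mutants and 1.53 to 2.78 CPM in wild type. The log2 fold changes of the 2 tested genes were 0.28 and 0.63. lov-1 and pkd-2, which define male sensory neurons and were named outside the rule for lists, were at or below 0.326 CPM in every library.

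The somatic lists had medians between -0.06 and 0.40. A count of 1 gene in 10 is near the shares over all tested genes, 13.4% lower and 9.96% higher. Intestinal genes were lower in 0 and higher in 1 of 10 (ifb-2, an intermediate filament, 0.35) with a median of 0.11. Epidermal genes were lower in 0 and higher in 2 of 11, nhr-25 (1.96), a nuclear receptor, and rol-6 (0.68), a collagen, with a median of -0.06. Body wall muscle genes were lower in 1 of 10 (myo-3, a myosin, -0.25) and higher in 0, with a median of -0.06. Neuronal genes were lower in 0 and higher in 5 of 10, among them rab-3 (0.68) and sbt-1 (0.62), with a median of 0.40. Their summed levels were 7793 to 9002 CPM (intestine), 2011 to 2237 CPM (epidermis), 15125 to 18030 CPM (muscle) and 574 to 653 CPM (neurons) in the mutants, and 6725 to 7969, 2002 to 2194, 16877 to 17378 and 459 to 547 CPM in wild type. When wild type replicate 2 was left out, 5 of 11 epidermal, 2 of 10 intestinal and 7 of 10 neuronal genes were higher and 0 muscle genes were lower. With the replicate block 0 muscle genes and 1 epidermal gene were lower. With any other library left out, 2 epidermal genes and 4 or 5 neuronal genes were higher, the intestinal gene was lost except without ddi-1(icb156) replicate 2, and the muscle gene was lost except without ddi-1(icb156) replicate 3.

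**Figure D5:**
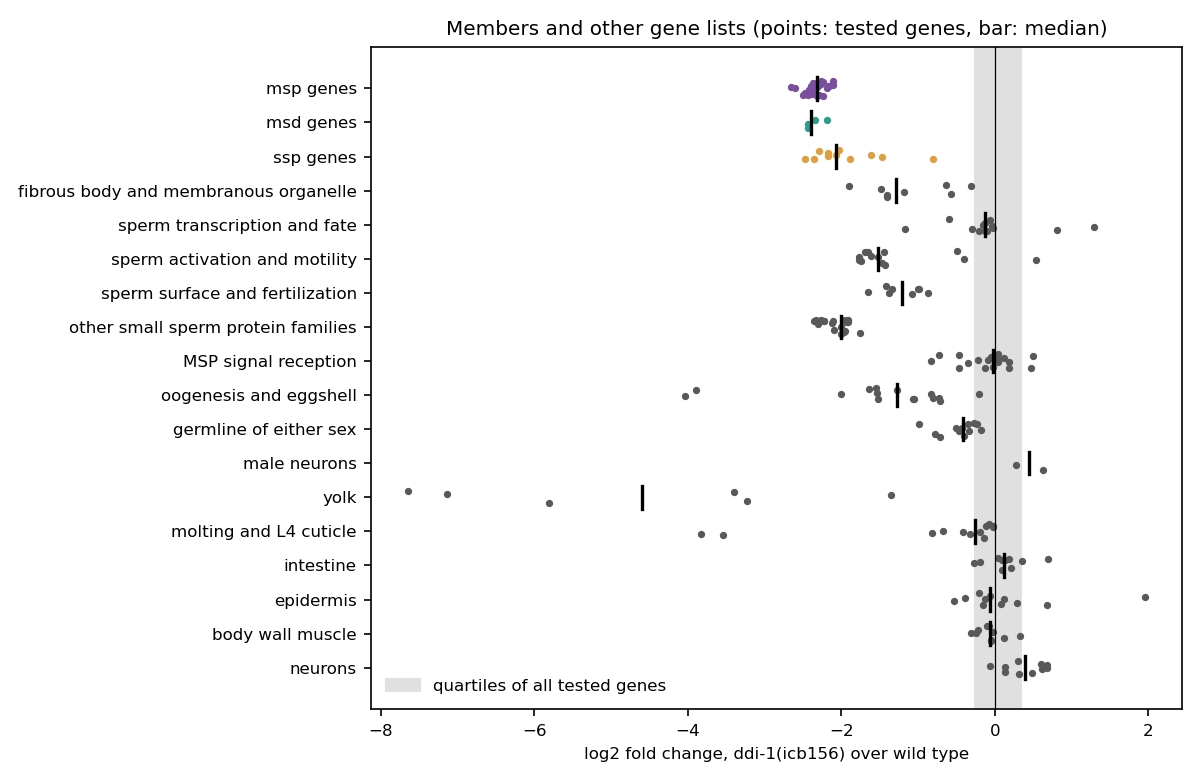
edgeR log2 fold change, ddi-1(icb156) over wild type, of tested genes (points) in the msp, msd and ssp families and in 15 other lists, with a bar at each median and the quartiles of all tested genes in grey. The members (medians -2.32, -2.39 and -2.07) and the other small sperm families (-2.01) lie farthest left after the yolk genes (-4.60). The medians of regulators of sperm fate and of the list for MSP signal reception lie near 0.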

How the data were processed

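Per the sources used here, the authors extracted total RNA with TRIzol, had it sequenced by BGI and quantified each library with kallisto on the WS283 transcriptome, then tested with Sleuth. Tool versions and strandedness were not given in the sources used here. Each deposited file holds estimated counts, lengths and effective lengths of 37058 transcripts for 1 of 6 libraries, not normalized and not pooled. TPM were computed here from estimated counts and effective lengths.

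Transcripts were joined to genes with WBcel235 in Ensembl release 115 (30413 by transcript ID, 6631 by sequence name, 14 unmatched), and the estimated counts of a gene's transcripts were added and rounded. edgeR 4.0.16 in R 4.3.3 was run with filterByExpr, TMM (factors 0.9692 to 1.0716) and robust quasi-likelihood tests, two-sided, with Benjamini-Hochberg adjustment over 15410 genes. A gene passed at p below 0.01 and adjusted p below 0.1, the study's thresholds. Standard errors are the size of the unshrunken log2 fold change over the root of its F statistic, while the edgeR fold changes printed are shrunken. Labels call the samples biological replicates. Deviations from the group means correlated across genes at 0.114, 0.309 and 0.185 in same-numbered pairs and at -0.289 to 0.114 in the others. All same-numbered pairs were above 0.1, so replicate numbers from the titles were taken to pair the samples, although replicate 1 was no closer to its own number than mutant replicate 3 was to wild type replicate 1. The main fit and the exact permutation tests did not use this pairing. A separate fit with the number as a block was run. CPM use TMM-scaled library sizes. Test scripts were tested on simulated data.

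Members and lists were chosen with earlier results of these data known. Named members are, in each family, the 3 highest by mean TPM, the 3 largest log2 fold changes, and those that did not pass or could not be tested. From each other list, the 2 passing genes of smallest p and the passing gene of smallest p against the list's median were named. Of the lists, spe-7, spe-13, trp-3 and fer-14 were not found by symbol. In RefSeq, F44D12.7 is msd-3 and T28H11.6 is ssp-11, the names used here, and ssp-28 (spp-28 in Ensembl) is not a member. No reference sequences were used here.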

Additional observations from a re-analysis of the deposited data

How the results depend on the processing

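The member log2 fold changes were below 0 in all 614 combinations of a tested member and an alternative, and 0 reversed. The count of members lower in the mutants was 39 with library size alone, 43 of 44 by DESeq2 1.42.0, 43 of 47 without a filter, 38 of 42 with a stricter filter (1 CPM in 3 libraries and 50 counts in all), 36 and 35 by limma 3.58.1 on log2(TPM + 1) and log2(TPM + 0.5), 42 at an adjusted p below 0.05 alone and 41 with the replicate block, and among the members the block changed no call other than those of msp-63, ssp-36 and ssp-33. Of all tested genes, 18.4% were lower by DESeq2 and 14.3% with the replicate block. The counts for the other settings just named have no such share beside them, so they cannot be set against all genes. Leaving out 1 library at a time moved the counts most. All members lower ranged over 1 to 45, msp over 1 to 30, msd over 0 to 4, ssp over 0 to 11, all genes lower over 771 to 3474 and all genes higher over 931 to 3085. The log2 difference of the total without wild type replicate 2 was -2.71, and in TPM with all libraries it was -2.06. Depth limits msp-32, msp-58 and ssp-37, and reads shared between copies limit every single msp value. Summing genes of identical protein sequence and searching promoters for motifs were not run, since no sequence table was used here.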
